A study of Homo sapiens with 16 samples.

Results

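The genes described here are the FOXO transcription factors FOXO1, FOXO3 and FOXO4, the FOXO target genes PDK4, CCNG2, BCL6, TXNIP and SESN3, and PIK3CA, the catalytic subunit of phosphoinositide 3-kinase. They were chosen by name. Each gene was read from the probe set (a transcript cluster of the array) annotated to that symbol alone, taking the cluster with the highest mean where a gene had several. Of the 9 listed genes, 8 were measured, among 18377 genes in all. No cluster carried the symbol PIK3CA in the annotation used, so PIK3CA was not analysed here.

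RNA came from tumours of BT474, a HER2-positive human breast cancer line, that grew in mammary fat pads of mice without a full immune system, and was hybridised to Affymetrix Human Gene 1.0 ST arrays, 1 array per tumour. The groups were 7 tumours with the artificial microRNA SHP2 miR1, 3 tumours with SHP2 miR2 and 6 tumours with the control microRNA CTRL miR. SHP2 is the tyrosine phosphatase encoded by PTPN11, which passes signals from receptor tyrosine kinases to RAS and the MAP kinases. All 16 tumours, controls included, carried a doxycycline-inducible lentiviral vector, and all mice drank doxycycline at 2 g per liter for 30 days after tumours had formed. No label says which mouse bore which tumour, so every p-value measures only the spread between these tumours.

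FOXO factors are forkhead transcription factors that act as brakes on growth. When insulin-like growth factors or HER2 family receptors activate phosphoinositide 3-kinase and AKT, AKT phosphorylates the FOXO proteins and they are held outside the nucleus. When that signal falls, they enter the nucleus and induce genes for cell cycle arrest, stress resistance, cell death and the use of fat in place of glucose. Most of this control acts on the protein, and the arrays measured RNA only.

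The FOXO proteins bind a short forkhead element, and the promoters of the target genes are shown here because they differ in whether they hold it. GTAAACA, or TGTTTAC on the other strand, was searched in the 300 bases from 250 before to 50 after each RefSeq transcript start (GRCh38.p14). It occurred in 1202 of 35116 such windows, or 3.42%, and in 2 of the 13 windows of the 8 measured genes. A match, set in capitals, stood in 1 of the 2 windows of TXNIP and in the window of FOXO4. The other TXNIP window and all windows of PDK4, BCL6, SESN3, CCNG2, FOXO1 and FOXO3 held none. Most windows of all genes hold none either, so this absence does not set these genes apart. A match is a description of these letters and not of binding. The windows printed are TXNIP on the minus strand at chr1:145996530-145996829, FOXO4 on the plus strand at chrX:71095601-71095900, PDK4 on the minus strand at chr7:95596467-95596766, BCL6 on the minus strand at chr3:187745419-187745718 and SESN3 on the minus strand at chr11:95232426-95232725. The match lay 124 bases upstream of the TXNIP start and 24 bases downstream of the FOXO4 start.
TXNIP: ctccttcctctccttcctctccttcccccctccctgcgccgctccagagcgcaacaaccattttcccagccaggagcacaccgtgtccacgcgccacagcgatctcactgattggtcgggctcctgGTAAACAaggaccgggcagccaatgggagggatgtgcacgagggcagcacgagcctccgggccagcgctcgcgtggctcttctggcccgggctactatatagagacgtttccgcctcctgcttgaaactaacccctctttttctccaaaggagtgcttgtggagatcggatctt
FOXO4: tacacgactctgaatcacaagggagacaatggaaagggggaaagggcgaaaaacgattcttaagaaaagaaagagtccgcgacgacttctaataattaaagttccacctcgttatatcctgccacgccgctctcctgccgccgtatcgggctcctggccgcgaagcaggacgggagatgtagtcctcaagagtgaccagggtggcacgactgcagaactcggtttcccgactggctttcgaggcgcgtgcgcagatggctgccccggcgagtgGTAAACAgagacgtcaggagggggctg
PDK4: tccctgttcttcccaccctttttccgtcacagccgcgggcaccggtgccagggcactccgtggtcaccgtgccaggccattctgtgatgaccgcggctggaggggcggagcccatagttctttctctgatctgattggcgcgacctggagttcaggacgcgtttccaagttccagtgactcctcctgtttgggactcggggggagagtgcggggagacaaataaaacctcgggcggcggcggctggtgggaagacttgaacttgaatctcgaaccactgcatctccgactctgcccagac
BCL6: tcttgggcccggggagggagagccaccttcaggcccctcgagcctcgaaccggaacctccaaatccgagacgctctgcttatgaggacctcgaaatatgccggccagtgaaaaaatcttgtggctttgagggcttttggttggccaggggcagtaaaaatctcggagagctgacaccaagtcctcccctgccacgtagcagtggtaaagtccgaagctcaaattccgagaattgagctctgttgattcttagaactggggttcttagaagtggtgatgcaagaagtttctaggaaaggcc
SESN3: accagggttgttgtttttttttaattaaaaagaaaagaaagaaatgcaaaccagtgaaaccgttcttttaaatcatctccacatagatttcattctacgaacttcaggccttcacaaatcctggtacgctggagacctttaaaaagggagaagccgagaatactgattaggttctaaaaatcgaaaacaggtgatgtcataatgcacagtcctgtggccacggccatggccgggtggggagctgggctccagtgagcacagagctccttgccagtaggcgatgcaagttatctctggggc

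The 16 arrays had medians between 5.21 and 5.41 on the deposited log2 scale and lower quartiles between 3.72 and 4.04. SHP2 miR2 tumours 1 and 3, which are 2 of the 3 arrays behind every SHP2 miR2 result, stood apart: they had the highest medians and lower quartiles, and an SD over clusters of 1.89 each, against 1.95 to 2.07 on the other 14 arrays. PTPN11, the targeted gene, had a log2 signal of 6.59 to 7.18 in SHP2 miR1 tumours, 6.34 to 6.53 in SHP2 miR2 tumours and 8.23 to 8.61 in CTRL miR tumours, and fell by 1.47 ± 0.097 (log2, SE) in SHP2 miR1 and fell by 1.94 ± 0.12 in SHP2 miR2. The 6 control tumours fell into separate kinds. IRS4, a docking protein of insulin signalling, had a log2 signal of 2.97 to 3.91 with either hairpin, against 3.16 and 3.77 in controls 2 and 5; the remaining controls ran from 7.14 to 8.29. HOXD10, a developmental homeobox gene, split the controls in the same way. A list of 10 genes typical of embryonic kidney lines includes IRS4 and HOXD10, so it is not independent of this split. The list averaged 4.20 to 4.47 per tumour in the knockdown tumours and 4.29 and 4.33 in controls 2 and 5. In controls 1, 3, 4 and 6 it averaged 5.89 to 6.37. Each member called with a hairpin is therefore also given against controls 2 and 5 alone and against the other controls alone. The arrays also formed sets A and B by the signal of 5 small noncoding RNAs, and all SHP2 miR2 arrays were in set B.

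PDK4 and BCL6 were the members that fell with SHP2 miR2, and SESN3 and FOXO1 were those that fell with SHP2 miR1. Against all 6 controls, 2 of the 8 measured genes passed an adjusted p of 0.05 in SHP2 miR1 tumours, where 4.76% of all genes did. Both fell, as did 3.38% of all genes, while 1.38% of all genes rose. In SHP2 miR2 tumours 3 of 8 passed, where 30.0% of all genes did: 1 rose, beside 11.8% of all genes, and 2 fell, beside 18.2%. With both hairpins weighted equally against the controls, 2 of 8 passed and fell, where 18.6% of all genes passed, 13.1% falling and 5.52% rising. These shares moved with single arrays: 5508 genes passed in SHP2 miR2, but 2391 without SHP2 miR2 tumour 3 and 2935 without tumour 1, and 874 passed in SHP2 miR1, with 233 to 1913 when each tumour was left out. The median change of the 8 genes was -0.18 (log2) in SHP2 miR1, beside 0.018 over all genes, and -0.018 in SHP2 miR2, beside 0.023 over all genes. The hairpins share their controls, so their changes are not independent. In these bulk tumours, fewer cells of a type and less RNA per cell cannot be told apart.

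**Figure D1:**
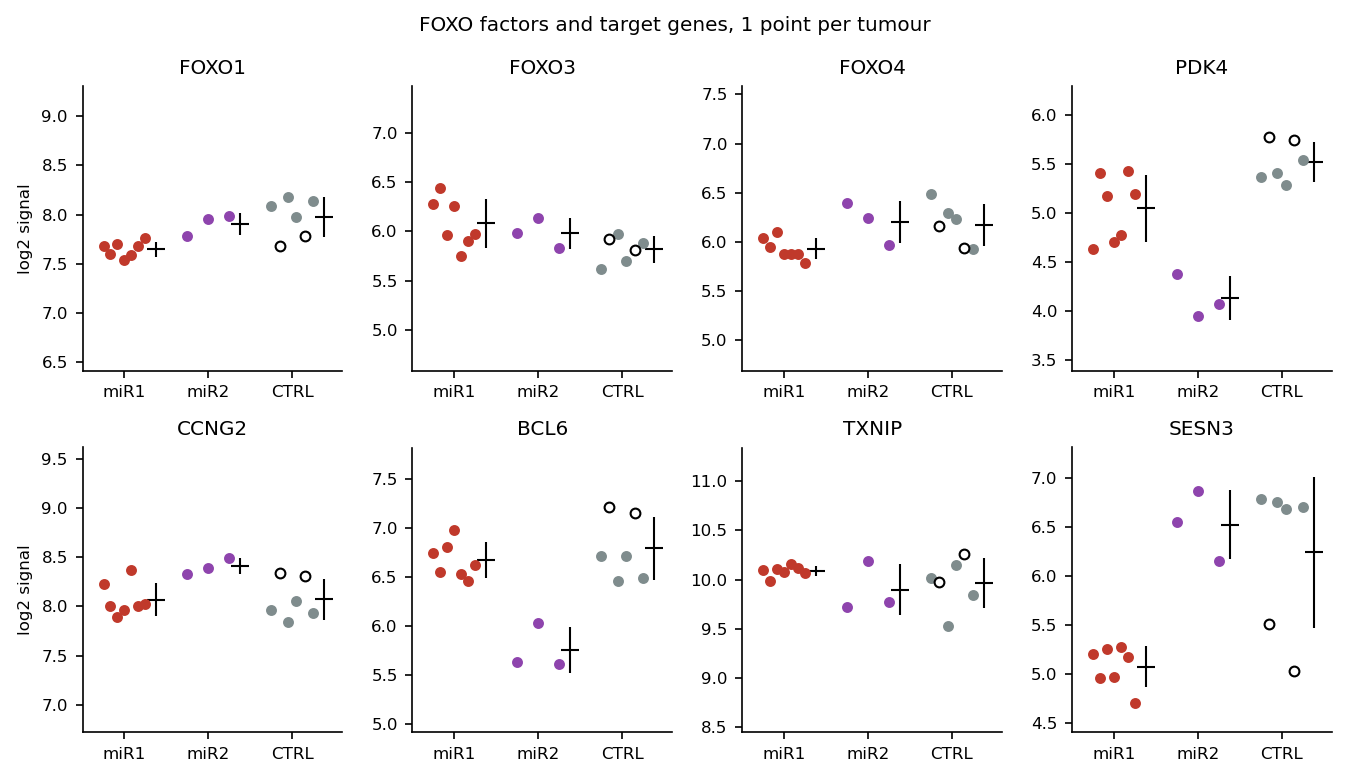
Log2 signal of the 8 measured genes, 1 point per tumour, in SHP2 miR1, SHP2 miR2 and CTRL miR tumours; open circles are control tumours 2 and 5, and the cross beside each group is its mean with the SD. All axes span the same log2 range. PDK4 and BCL6 lie lowest in the 3 SHP2 miR2 tumours, and control tumours 2 and 5 lie beside the SHP2 miR1 tumours for SESN3 and FOXO1.

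Of the factors, FOXO1 was lower in SHP2 miR1 tumours. Neither FOXO3 nor FOXO4 passed in any contrast of the 3 groups when no block or array weights were used. FOXO1 (chr13:40555667-40666641, GRCh38.p14) is the FOXO factor best known from insulin action in liver and muscle. Its log2 signal ran from 7.54 through a median of 7.67 to 7.76 in the 7 SHP2 miR1 tumours, was 7.78, 7.95 and 7.98 in the 3 SHP2 miR2 tumours, and ran from 7.67 through 8.03 to 8.18 in the 6 CTRL miR tumours. Control tumours 2 and 5, at 7.67 and 7.78, lay within or just above the SHP2 miR1 range, and the other controls, at 7.98 to 8.18, lay above it. FOXO1 was lower by 0.32 ± 0.089 (log2, SE; limma adjusted p = 0.0407) in SHP2 miR1 than in all controls, a 1.25-fold change. Against controls 2 and 5 alone the FOXO1 change was -0.079 with a limma adjusted p of 0.944, and against controls 1, 3, 4 and 6 alone it was -0.45 with a limma adjusted p of 0.000489. The call was also lost when any 1 of 10 of the 16 tumours was left out. Within the array sets the FOXO1 change was -0.35 (limma adjusted p = 0.279) in set A and -0.29 (limma adjusted p = 0.496) in set B. The SHP2 miR2 change of FOXO1 was -0.067, with a 95% interval of -0.30 to 0.17. The kidney line genes, high in the same 4 controls in which FOXO1 was high, move with this difference, and their part in it was not tested.

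FOXO3 (chr6:108559825-108684774), the factor most studied downstream of HER2 and AKT in breast cancer cells, had a log2 signal from 5.75 through 5.97 to 6.45 in SHP2 miR1, of 5.98, 6.13 and 5.83 in SHP2 miR2, and from 5.62 through 5.85 to 5.98 in CTRL miR tumours. The 3 highest values, 6.26 to 6.45, were those of SHP2 miR1 tumours 1, 2 and 4, all on set A arrays, and the groups overlapped. The FOXO3 change was 0.27 ± 0.11 (log2, SE; limma adjusted p = 0.182) in SHP2 miR1, with a 95% interval of 0.040 to 0.49, and 0.16 in SHP2 miR2, with an interval of -0.12 to 0.45. Within the array sets, the SHP2 miR1 change of FOXO3 was 0.40 in set A and 0.079 in set B. FOXO3 has a near-identical copy, FOXO3B, and a further cluster shared by both symbols was not used, so the FOXO3 signal is uncertain.

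FOXO4 (chrX:71095851-71103532), the X-linked member of the family, had a log2 signal from 5.79 through 5.88 to 6.10 in SHP2 miR1, of 6.39, 6.25 and 5.97 in SHP2 miR2, and from 5.92 through 6.19 to 6.49 in CTRL miR tumours. Of the 7 SHP2 miR1 tumours, 4 lay below the lowest control and 3 inside the control range. The FOXO4 change was -0.24 ± 0.10 (log2, SE; limma adjusted p = 0.189) in SHP2 miR1, with a 95% interval of -0.45 to -0.033, and 0.031 in SHP2 miR2, with an interval of -0.23 to 0.30. SHP2 miR1 minus SHP2 miR2 was -0.27 (limma adjusted p = 0.109) for FOXO4, and it passed at -0.39 (limma adjusted p = 0.0319) with the array set as a block and at -0.31 (limma adjusted p = 0.0443) with array weights.

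PDK4 showed the largest fall among the targets. PDK4 (chr7:95583499-95596516) is pyruvate dehydrogenase kinase 4, which phosphorylates and switches off the pyruvate dehydrogenase complex and so turns cells from glucose to fatty acid oxidation; FOXO1 and the PPAR receptors induce it on fasting. Its log2 signal was 4.38, 3.95 and 4.07 in the 3 SHP2 miR2 tumours, ran from 4.63 through 5.17 to 5.43 in SHP2 miR1 tumours, and ran from 5.28 through 5.47 to 5.77 in CTRL miR tumours. All SHP2 miR2 values lay below every other tumour, and the SHP2 miR1 values spread from the control range downwards, with 5 of 7 below the lowest control. SHP2 miR2 lowered PDK4 by 1.38 ± 0.18 (log2, SE; limma adjusted p = 2.84e-05), a 2.61-fold fall. The lower quartiles of SHP2 miR2 arrays 1, 2 and 3 were 4.01, 3.87 and 4.04. PDK4 lay close to them in these tumours, so the size of its fall is uncertain. The SHP2 miR1 change was -0.47 ± 0.14 (limma adjusted p = 0.0552), with a 95% interval of -0.76 to -0.18, and it passed without SHP2 miR1 tumour 2 (-0.53, limma adjusted p = 0.0436) or tumour 6 (-0.54, limma adjusted p = 0.0398). SHP2 miR1 minus SHP2 miR2 was 0.91 ± 0.17 (limma adjusted p = 0.00130), so the hairpins differed for this gene.

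The PDK4 fall with SHP2 miR2 was 1.62 (log2; limma adjusted p = 0.000189) against controls 2 and 5 alone and 1.26 (limma adjusted p = 1.28e-05) against the other controls alone. The call therefore held against both kinds of control. Within set B, where all SHP2 miR2 tumours were measured, PDK4 was lower by 1.39 (limma adjusted p = 0.00132). With SHP2 miR2 tumour 2 as the only SHP2 miR2 array, assumed to vary like the other groups, the PDK4 change was -1.56 (limma adjusted p = 0.00395). PDK4 is also abundant in muscle and fat, tissues that border the mammary fat pad in the host. The 11 measured muscle markers averaged 4.92 to 6.18 per tumour in SHP2 miR2, 4.68 to 5.74 in SHP2 miR1 and 4.62 to 5.01 in CTRL miR, and 11 adipocyte markers averaged 4.77 to 5.06, 4.46 to 4.78 and 4.56 to 4.88 in the same groups. The ranges of both lists overlapped between the groups. In SHP2 miR2, 3 of the muscle markers rose, and 4 adipocyte markers rose and 1 fell. Of all genes, 11.8% rose and 18.2% fell there. The host tissue was of mouse, and the arrays were made for human genes. The part of host tissue in the PDK4 values was not tested.

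BCL6 (chr3:187721377-187745468), a zinc finger repressor that FOXO factors induce and that represses cyclin D2 in lymphocytes, had a log2 signal of 5.63, 6.03 and 5.62 in SHP2 miR2, from 6.46 through 6.62 to 6.98 in SHP2 miR1, and from 6.45 through 6.72 to 7.21 in CTRL miR tumours. The 3 SHP2 miR2 tumours lay below all others, and the SHP2 miR1 tumours lay inside the control range. Controls 2 and 5, at 7.21 and 7.15, were the highest of all 16 tumours. SHP2 miR2 lowered BCL6 by 1.03 ± 0.16 (log2, SE; limma adjusted p = 0.000249), a 2.04-fold fall, and the difference between hairpins was 0.91 ± 0.16 (limma adjusted p = 0.000782). The SHP2 miR1 change was -0.12 against all controls, with a 95% interval of -0.39 to 0.15. It was -0.51 (limma adjusted p = 0.383) against controls 2 and 5 alone and 0.077 (limma adjusted p = 0.694) against the other controls alone, while the SHP2 miR2 change was -1.42 (limma adjusted p = 3.46e-05) and -0.84 (limma adjusted p = 6.88e-05) in the same order. With SHP2 miR2 tumour 2 as the only SHP2 miR2 array, the BCL6 change was -0.76 and the call was lost (limma adjusted p = 0.141).

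PDK4 and BCL6 were the measured members whose SHP2 miR2 values did not overlap the controls, 2 of 8, where 17.8% of all genes did not overlap. No member separated SHP2 miR1 from all controls (0 of 8), where 1.30% of genes did; by limma 2 members passed that contrast.

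SESN3 was the target with the largest fall in SHP2 miR1 tumours, and the control tumours themselves spanned that difference. SESN3 (chr11:95165513-95232475) encodes sestrin 3, a stress protein induced by FOXO factors that restrains the growth kinase complex mTORC1. Its log2 signal ran from 4.70 through 5.18 to 5.27 in SHP2 miR1, was 6.55, 6.86 and 6.16 in SHP2 miR2, and ran from 5.03 through 6.69 to 6.78 in CTRL miR tumours. Controls 1, 3, 4 and 6 lay between 6.68 and 6.78, and controls 2 and 5 lay at 5.51 and 5.03, beside the SHP2 miR1 tumours. Against all controls SESN3 was lower by 1.16 ± 0.24 (log2, SE; limma adjusted p = 0.0133) in SHP2 miR1, and the SHP2 miR2 change was 0.28 ± 0.31 (limma adjusted p = 0.489). Against controls 2 and 5 alone the SHP2 miR1 change was -0.19 (limma adjusted p = 0.906) and SHP2 miR2 was higher by 1.25 (limma adjusted p = 0.00130). Against controls 1, 3, 4 and 6 alone SHP2 miR1 was lower by 1.65 (limma adjusted p = 3.09e-09), and the SHP2 miR2 change was -0.21 (limma adjusted p = 0.264). Within the array sets the SHP2 miR1 change of SESN3 was -1.25 (limma adjusted p = 0.194) in set A and -1.09 (limma adjusted p = 0.348) in set B. The kidney line genes again moved with the split of the controls, and their part in the SESN3 values was not tested.

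The size of the difference between the hairpins uses no control tumour, though the controls enter the shared estimate of the spread behind its SE and p. SESN3 was 1.44 ± 0.30 (log2, SE; limma adjusted p = 0.00277) lower in SHP2 miR1 than in SHP2 miR2, with no overlap, and within set B the difference was -1.47 (limma adjusted p = 0.0391). Fitted without the controls, the adjusted p by limma was 3.35e-06 for SESN3, 0.00113 for PDK4 and 0.000105 for BCL6. With SHP2 miR2 tumour 2 as the only SHP2 miR2 array none of the 3 passed, with limma adjusted p of 0.0902 for SESN3, 0.0536 for PDK4 and 0.329 for BCL6. In this contrast 3 of 8 members passed, PDK4 and BCL6 higher in SHP2 miR1 and SESN3 lower, where 22.5% of all genes passed, 14.3% higher and 8.22% lower. FOXO1 also did not overlap between the hairpins, though its limma adjusted p was 0.0901, which made 4 of 8 members without overlap beside 20.1% of all genes. The knockdown of PTPN11 was 0.46 (log2) deeper on average in SHP2 miR2.

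CCNG2 (chr4:77157207-77170060) encodes cyclin G2, an unusual cyclin that slows the cell cycle and that rises in HER2-dependent breast cancer cells when HER2 signalling is blocked. Its log2 signal was 8.33, 8.39 and 8.50 in SHP2 miR2, ran from 7.89 through 8.01 to 8.37 in SHP2 miR1, and ran from 7.84 through 8.01 to 8.34 in CTRL miR tumours. SHP2 miR2 tumours lay at the top of the control range or above it, where controls 2 and 5 lay at 8.34 and 8.31. CCNG2 was higher by 0.34 ± 0.13 (log2, SE; limma adjusted p = 0.0493) in SHP2 miR2, and the SHP2 miR1 change was -0.0025, with a 95% interval of -0.21 to 0.20. The SHP2 miR2 call was lost when any 1 of 13 of the 16 tumours was left out. The SHP2 miR2 change was 0.085 (limma adjusted p = 0.782) against controls 2 and 5 alone and 0.46 (limma adjusted p = 0.00369) against the other controls alone.

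TXNIP (chr1:145992435-145996579), the thioredoxin-interacting protein that slows glucose uptake and is induced by glucose through MondoA as well as by FOXO factors, did not pass in any contrast. Its log2 signal ran from 9.99 through 10.09 to 10.15 in SHP2 miR1, was 9.72, 10.19 and 9.77 in SHP2 miR2, and ran from 9.53 through 10.00 to 10.26 in CTRL miR tumours. The SHP2 miR1 values lay within the wider control range, with an SD of 0.052 (n = 7) beside 0.26 (n = 6) in controls. The 95% interval of the TXNIP change was -0.097 to 0.34 in SHP2 miR1 and -0.35 to 0.21 in SHP2 miR2.

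**Figure D2:**
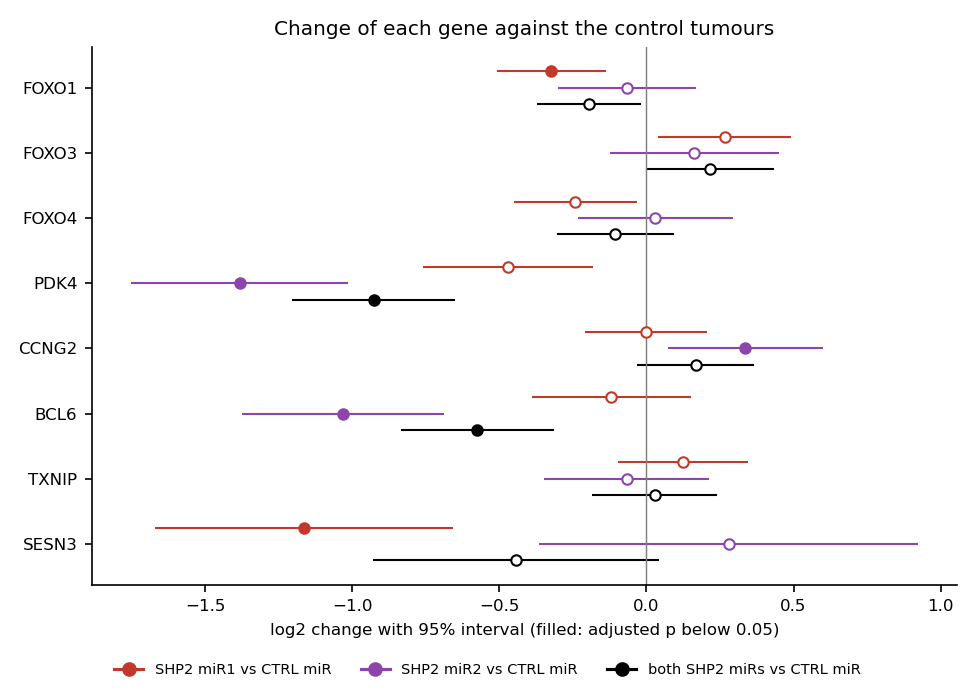
Log2 change of each gene against all 6 CTRL miR tumours with its 95% interval, for SHP2 miR1, SHP2 miR2 and both hairpins weighted equally; filled points have a limma adjusted p below 0.05. PDK4 and BCL6 pass with SHP2 miR2, SESN3 and FOXO1 with SHP2 miR1, and the CCNG2 rise with SHP2 miR2 is close to the threshold.

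Between the controls, 5 of the 8 genes did not overlap between tumours 2 and 5 and tumours 1, 3, 4 and 6, beside 35.6% of all genes. PDK4, CCNG2 and BCL6 were higher in tumours 2 and 5, and FOXO1 and SESN3 were lower there. Of all genes, 0.136% passed in SHP2 miR1 and 4.37% in SHP2 miR2 against controls 2 and 5 alone, and 18.8% and 45.9% against controls 1, 3, 4 and 6 alone. PDK4 and BCL6 in SHP2 miR2 tumours were the member calls made by limma at adjusted p below 0.05 with the same sign against all controls and against each kind of control.

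**Figure D3:**
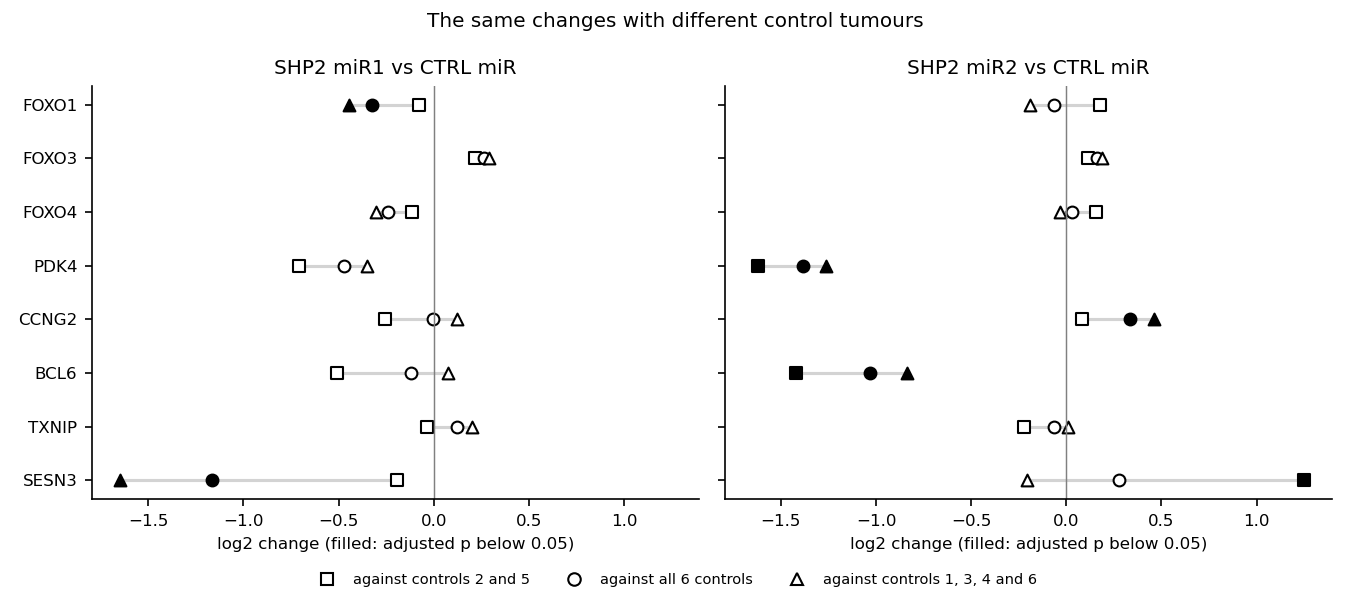
Log2 change of each gene in SHP2 miR1 and in SHP2 miR2 tumours against controls 2 and 5 alone (squares), all 6 controls (circles) and controls 1, 3, 4 and 6 alone (triangles); filled symbols have a limma adjusted p below 0.05. The SESN3 change spans -1.65 to -0.19 in SHP2 miR1, while PDK4 and BCL6 are filled under every choice in SHP2 miR2.

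The pathway that controls FOXO proteins was read from further lists, with both hairpins weighted equally against all controls unless stated. These values average unlike effects: of the 26 list genes named, 24 passed in SHP2 miR2, where 30.0% of all genes did. In SHP2 miR1, 1 of them (CCND2) passed, where 4.76% of all genes did. The 26 were chosen for small adjusted p with both hairpins, so these counts do not describe the whole lists. PLIN2, PPARA, TXN2, MLXIP and BCOR came next in their lists, did not pass with both hairpins and are not counted. Of 21 measured genes upstream of FOXO in the phosphoinositide 3-kinase and AKT pathway, 1 rose and 3 fell. Of all genes, 5.52% rose and 13.1% fell. The median change of the 21 was 0.072 (log2), beside 0.030 over all genes. IGF1R, the insulin-like growth factor receptor, had a log2 signal of 4.56 to 5.32 in SHP2 miR2, 7.20 to 7.84 in SHP2 miR1 and 6.86 to 7.55 in CTRL miR tumours. It fell by 2.23 ± 0.18 (log2, SE; limma adjusted p = 1.09e-07) in SHP2 miR2 and changed by 0.42 ± 0.14 (limma adjusted p = 0.100) in SHP2 miR1. The IGF1R fall in SHP2 miR2 was 2.01 (limma adjusted p = 1.37e-05) against controls 2 and 5 alone and 2.07 (limma adjusted p = 8.77e-05) within set B. SGK1, a kinase related to AKT that phosphorylates FOXO3, fell by 0.80 (log2; limma adjusted p = 0.0131) and the fall was 1.64 (limma adjusted p = 6.41e-05) against controls 2 and 5 alone and 0.38 (limma adjusted p = 0.0324) against the other controls alone. MTOR fell by 0.36 and PIK3R3, a regulatory subunit of phosphoinositide 3-kinase, rose by 0.36, and neither passed against controls 2 and 5 alone. The MTOR call was also lost when any 1 of 12 of the 16 tumours was left out.

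Of 36 other measured genes that FOXO factors induce, 1 rose and 4 fell, beside 5.52% and 13.1% of all genes. Their median change was 0.0081, beside 0.030 over all genes. TNFSF10, the death ligand TRAIL, had a log2 signal of 7.15 to 7.62 in SHP2 miR2, 6.33 to 6.64 in SHP2 miR1 and 5.70 to 6.44 in CTRL miR tumours. It rose by 1.20 ± 0.14 (log2, SE; limma adjusted p = 1.15e-05) in SHP2 miR2, and by 1.22 (limma adjusted p = 7.83e-05) against controls 2 and 5 alone. Its SHP2 miR1 change was 0.34 ± 0.11 (limma adjusted p = 0.0820). DDIT4, an inhibitor of mTORC1, fell by 0.60, SOD2, the mitochondrial superoxide dismutase, fell by 0.46, and EIF4EBP1, a repressor of translation, fell by 0.42. For EIF4EBP1 the change was -0.86 (limma adjusted p = 0.000216) in SHP2 miR2 and 0.015 (limma adjusted p = 0.970) in SHP2 miR1, and the hairpins differed by 0.87 (limma adjusted p = 0.000176). None of these 3 passed against controls 2 and 5 alone. DDIT4 averaged 7.08 in controls 2 and 5 and 6.88 in the other controls, so its fall was larger against controls 2 and 5. SOD2 averaged 7.16 and 7.63 and EIF4EBP1 7.24 and 7.46 in the same order, so their falls were smaller there. Of 3 genes that FOXO factors repress, 1 fell, beside 13.1% of all genes. This was CCND2 (cyclin D2), which fell by 1.07. Against controls 2 and 5 alone its change was 0.25 (limma adjusted p = 0.862), and against the other controls alone it was -1.73 (limma adjusted p = 8.05e-09). CCND1 (cyclin D1) and FOXM1, both drivers of division, changed by -0.18 and -0.34 without passing with both hairpins. In SHP2 miR2 both fell, CCND1 by 0.45 (limma adjusted p = 0.0127) and FOXM1 by 0.73 (limma adjusted p = 0.00988), and their SHP2 miR1 changes were 0.085 and 0.054, so that the hairpins differed by 0.53 (limma adjusted p = 0.00553) for CCND1 and by 0.78 (limma adjusted p = 0.00780) for FOXM1.

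Of 26 enzymes and partners that modify FOXO proteins, 4 fell, beside 13.1% of all genes, with a median change of -0.023 beside 0.030 over all genes. With both hairpins CHUK, a kinase of the IKK complex, fell by 0.47 and MDM2, a ubiquitin ligase, by 0.52. SIRT2, a deacetylase, fell by 0.31, and YWHAE, a 14-3-3 protein that holds phosphorylated FOXO in the cytoplasm, by 0.26. In SHP2 miR2 alone, 6 of the 26 fell by limma, beside 18.2% of all genes.

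The enzyme complex that PDK4 controls also held lower values. Of 9 measured genes of the pyruvate dehydrogenase complex with its kinases and phosphatases, PDK4 apart, 4 fell, beside 13.1% of all genes. The median change of the 9 was -0.34 (log2), beside 0.030 over all genes. The same number fell in SHP2 miR2, beside 18.2% of all genes. DLAT, the acetyltransferase core, fell by 0.55, PDHB by 0.47, PDHX by 0.34 and PDK1, another of the inhibitory kinases, by 0.54. Against controls 2 and 5 alone none of these 4 passed, and the DLAT change was -0.23. Of 10 measured PPAR-driven genes of fatty acid use, 1 rose and 1 fell, beside 5.52% and 13.1% of all genes. CD36, a fatty acid carrier, rose by 0.25 at signals below the lower quartile of the arrays. HADHA, an enzyme of fatty acid oxidation, fell by 0.24.

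Among 10 genes for thioredoxin, the arrestin-domain relatives of TXNIP and its MLX family regulators, 2 fell, beside 13.1% of all genes. TXN, the thioredoxin that TXNIP binds, fell by 0.57 and MLX fell by 0.27. Of 6 measured relatives and cofactors of CCNG2, BCL6 and SESN3, 3 fell, beside 13.1% of all genes, and none passed in SHP2 miR1. CCNG1 (cyclin G1, a p53 target) fell by 0.79, SESN2 (sestrin 2) by 0.57 and BCL6B by 0.36. CCNG1 had a log2 signal of 7.07 in both controls 2 and 5 and of 7.94 to 8.15 in the other controls, and its change against controls 2 and 5 alone was -0.15 (limma adjusted p = 0.929). Of the 24 named list genes called against all controls, 2 (TNFSF10 and SGK1) passed against controls 2 and 5 alone, where 0.751% of all genes did. All 24 passed against controls 1, 3, 4 and 6 alone, where 35.5% of all genes did. The 24 were chosen by a contrast that includes those same controls, so this count follows largely from the choice. In array set B alone 3 of the 26 passed, where 306 of 18377 genes did. Of the 24, 9 lost the call when some 1 tumour was left out: MTOR, BCL6B (any 1 of 11 tumours), MDM2, YWHAE, PDHB, PDK1 and HADHA (any 1 of 6 each), CD36 (any 1 of 5) and CCND2 (any 1 of 3).

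Marker lists gave the following levels beside these results, where with both hairpins again means both weighted equally against all controls. The 10 identity genes of the breast line include ERBB2 and luminal keratins. They averaged 9.75 to 10.02 per tumour in SHP2 miR1 and 9.72 to 9.99 in SHP2 miR2. In controls 2 and 5 they averaged 9.76 to 9.90, and in controls 1, 3, 4 and 6 they averaged 9.27 to 9.74. With both hairpins 3 of 10 (ESR1, GATA3 and CDH1) were higher, where 5.52% of all genes rose. In SHP2 miR1 ESR1 alone passed. Of 13 macrophage markers, 3 rose with both hairpins, where 5.52% of all genes did, and 8 rose with SHP2 miR2, where 11.8% of all genes did. Of 12 fibroblast and matrix markers, 4 rose and 2 fell with both hairpins, and 6 rose and 2 fell with SHP2 miR2. Of 11 endothelial markers, 2 rose and 1 fell with both hairpins, and 3 rose with SHP2 miR2. Of all genes, 5.52% rose and 13.1% fell with both hairpins, and 11.8% rose and 18.2% fell with SHP2 miR2. In SHP2 miR1, 1 macrophage marker and 2 fibroblast and matrix markers rose, and 1 fibroblast and matrix marker and 1 endothelial marker fell. There 1.38% of all genes rose and 3.38% fell. The part of host cells in the member changes was not tested.

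The genes closest to PDK4 and BCL6 in pattern were found by the mean absolute gap over the 16 tumours after each gene was centred on its own mean. For PDK4 they were DUSP6, a phosphatase that inactivates ERK and is itself induced by ERK signalling, at a gap of 0.171 (log2), and GUCY1A2, a subunit of soluble guanylate cyclase, at 0.189. For BCL6 they were ELOVL5, a fatty acid elongase, at 0.102, and CHPT1, a phosphatidylcholine synthesis enzyme, at 0.150. DUSP6 had a log2 signal of 5.42 to 5.78 in SHP2 miR2, 6.30 to 7.33 in SHP2 miR1 and 7.0 to 7.33 in CTRL miR tumours. All 4 genes were chosen for their likeness to these members, so their levels are a description.

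**Figure D4:**
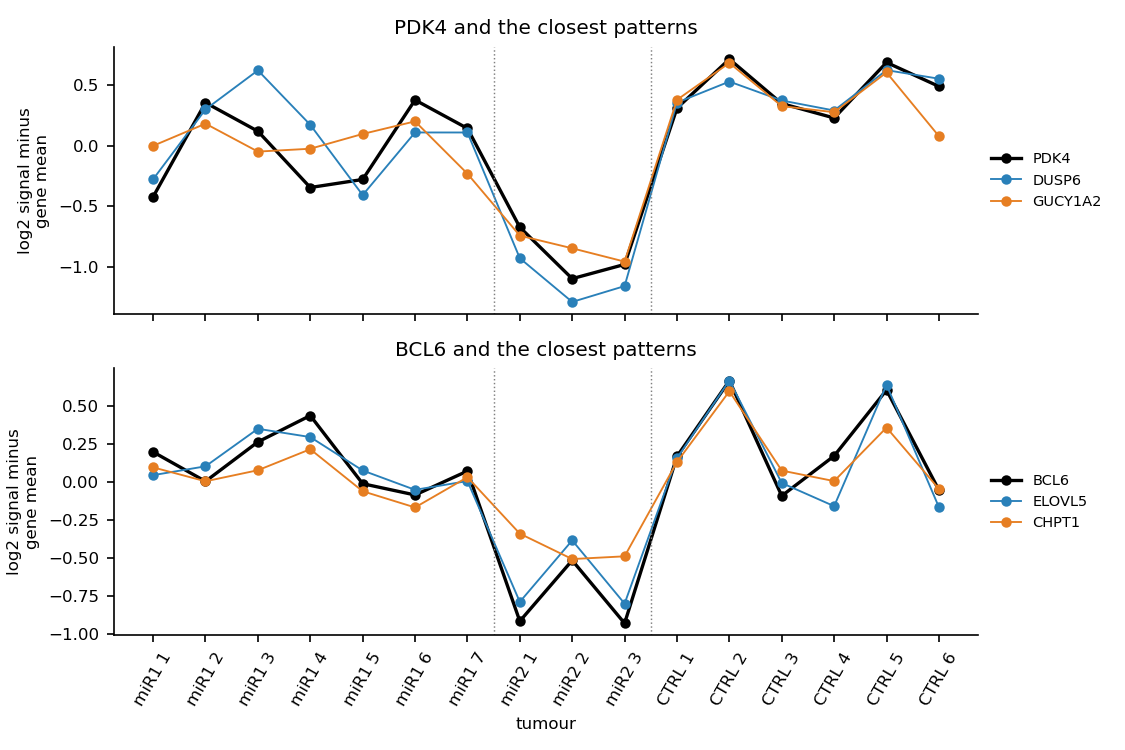
Log2 signal minus the gene's mean in each of the 16 tumours for PDK4 with DUSP6 and GUCY1A2, and for BCL6 with ELOVL5 and CHPT1; dotted lines separate SHP2 miR1, SHP2 miR2 and CTRL miR tumours. Each gene is lowest in SHP2 miR2 tumours, and each gene except DUSP6 has its highest values in control tumours 2 and 5.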

How the data were processed

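The values are the authors' deposited log2 signals, 1 column per tumour for 28869 transcript clusters. Per the submitters' processing notes they were made with R 2.10 and oligo 1.8; how background was corrected and arrays normalized is not given in the sources used here. Labelling used 100 ng total RNA, per the labels' protocols. The platform annotation gave 1 symbol to 19310 clusters, several to 1752 and none to 7807; keeping the cluster with the highest mean left 18377 genes.

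Gene levels were fitted by lmFit and eBayes of limma 3.58.1, run under R 4.3.3 (3 groups, 16 arrays, 13 residual degrees of freedom), with no further normalization and Benjamini-Hochberg adjustment over all genes. A gene is called at an adjusted p below 0.05, and all p-values are two-sided. The script was tested on simulated data. Array sets come from the expression values, at the largest gap in the mean of 5 noncoding RNAs, and are not a batch named in the labels. The split of the controls was likewise seen in their expression. The number of arrays limits the precision.

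The members and gene lists were chosen with earlier results of these data known. Besides the members, the text names PTPN11, IRS4, HOXD10, at most 4 genes per pathway list by adjusted p, and the 2 closest patterns for each member called with both hairpins. Alternatives were other normalizations, filters, priors, array weights, a replicate block, other controls, array sets and leaving out each tumour; leaving out SHP2 miR2 tumours 1 and 3 together was added after seeing the data. Promoter sequences are RefSeq's for GRCh38.p14.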

Additional observations from a re-analysis of the deposited data

Results flagged for a closer look

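For 3 genes the effects of the hairpins differed when the difference itself was tested with limma across all genes. SHP2 miR1 minus SHP2 miR2 was 0.91 (log2; limma adjusted p = 0.00130) for PDK4, 0.91 (limma adjusted p = 0.000782) for BCL6 and -1.44 (limma adjusted p = 0.00277) for SESN3. All 7 SHP2 miR1 tumours lay above all 3 SHP2 miR2 tumours for PDK4 and BCL6, and below them for SESN3. Of all genes, 22.5% differed between the hairpins. Within array set B the PDK4 difference was 1.0 (limma adjusted p = 0.0103), that of BCL6 0.78 (limma adjusted p = 0.0252) and that of SESN3 -1.47 (limma adjusted p = 0.0391). With SHP2 miR2 tumours 1 and 3 left out, none of the 3 passed by limma, at 1.09, 0.64 and -1.78 for PDK4, BCL6 and SESN3. Their cause was not tested.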

How the results depend on the processing

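The calls of PDK4 and BCL6 in SHP2 miR2 tumours, and of PDK4, BCL6 and SESN3 between the hairpins, were kept whichever single tumour was left out. An alternative chosen after seeing the data left out SHP2 miR2 tumours 1 and 3 together; the lone SHP2 miR2 array was then assumed to vary like the other groups, and the members called were 1 with both hairpins, 1 with SHP2 miR1, 1 with SHP2 miR2 and 0 between the hairpins (3 by limma at an unadjusted p below 0.05). Over all genes it left 450 calls in SHP2 miR2 and 304 between the hairpins. With both hairpins, 2 members were called, and 5 with array weights, 5 against controls 1, 3, 4 and 6 alone, 1 in array set B alone and 2 to 4 when each tumour was left out (4 without control tumour 5). With SHP2 miR1, 2 were called, and 1 with each array centred on its median, 1 over all clusters, 1 with only the groups compared, 0 against controls 2 and 5 alone, 0 in set A alone, 0 in set B alone and 1 to 2 when each tumour was left out. At an unadjusted p below 0.05, limma gave 2, 5 and 2 members in those 3 settings. Between the hairpins, 3 were called, and 5 after quantile normalization, 5 with array weights and 3 to 4 when each tumour was left out. With SHP2 miR2, leaving out each tumour gave 2 to 3 of the 3 called. Over all genes, both hairpins called 3414 genes, and 7047 with array weights, 138 against controls 2 and 5 alone, 6531 against controls 1, 3, 4 and 6 alone and 306 in set B. Leaving out each tumour gave 2086 (without control 3) to 5706 (without control 5) genes with both hairpins, 233 (without control 3) to 1913 (without control 2) with SHP2 miR1, 2391 (without SHP2 miR2 tumour 3) to 7739 (without control 5) with SHP2 miR2, and 1310 to 5923 (without SHP2 miR2 tumours 3 and 2) between the hairpins, against 874, 5508 and 4136 in the last 3 with all tumours.

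The labels number the tumours alike in each group. Deviations of same-numbered SHP2 miR1 and CTRL miR tumours correlated between 0.21 and 0.37 in 5 of 6 pairs and at -0.30 in pair 4, whose arrays lie in different sets. Pairs with SHP2 miR2 tumours lay between -0.42 and 0.022. Those 5 pairs each lay within a single array set, and every pair with an SHP2 miR2 tumour lay across sets. These correlations therefore cannot tell pairing from array set. Not every pair correlated above 0.1, and the tumours were not treated as paired. With the replicate block, SESN3 was the 1 member called in SHP2 miR1, and the FOXO1 call was lost (-0.34, limma adjusted p = 0.0528); CCNG2 differed between the hairpins by -0.36 (limma adjusted p = 0.0412).

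The following log2 changes had the opposite sign. Against controls 2 and 5 alone, with both hairpins, they were 0.050 for FOXO1, 0.021 for FOXO4, -0.084 for CCNG2, -0.13 for TXNIP, 0.53 for SESN3, 0.25 for CCND2, 0.032 for MDM2, 0.016 for PDHB and 0.044 for BCL6B; the last 4 were called against all controls. With the same controls they were 0.18 for FOXO1 in SHP2 miR2 and -0.033 for TXNIP in SHP2 miR1. Against controls 1, 3, 4 and 6 alone they were -0.032 for FOXO4, 0.011 for TXNIP and -0.21 for SESN3 in SHP2 miR2, and 0.12 for CCNG2 and 0.077 for BCL6 in SHP2 miR1. Quantile normalization gave 0.10 for FOXO1 and 0.028 for TXNIP in SHP2 miR2. Median centring gave -0.057 for FOXO4 in SHP2 miR2, 0.022 for CCNG2 in SHP2 miR1 and -0.0033 for TXNIP with both. Array weights gave 0.065 for CCNG2 in SHP2 miR1, -0.0036 for TXNIP with both and -0.075 for SESN3 in SHP2 miR2. The replicate block gave -0.077 for FOXO4 and 0.0062 for TXNIP in SHP2 miR2, and 0.0051 for CCNG2 in SHP2 miR1. The array set as a block gave -0.018 for FOXO3 between the hairpins, 0.0034 for CCNG2 in SHP2 miR1 and -0.0012 for TXNIP with both, and set B alone gave -0.10, 0.035 and -0.077 for the same. Without SHP2 miR2 tumours 1 and 3 they were -0.052 for FOXO3 and -0.11 for TXNIP between the hairpins, and 0.23 for TXNIP in SHP2 miR2. Leaving out each tumour gave -0.064 to 0.15 for FOXO4 and -0.22 to 0.021 for TXNIP in SHP2 miR2, -0.052 to 0.050 for CCNG2 in SHP2 miR1 and -0.058 to 0.087 for TXNIP with both. Apart from the 4 genes named, none of these was called by limma in either setting. The causes were not tested.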
